A study of Mus musculus with 8 samples.

Results

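The genes described here act in mitosis, the step of the cell cycle in which copied chromosomes are pulled apart. The group had 10 members, Top2a, Cdca8, Pbk, Birc5, Aurkb, Bub1, Plk1, Kif11, Prc1 and Tpx2, of 28786 gene names on the array. A probe belonged to the group when the scanner files gave it one of these names, which took in 16 of 41174 probes. The 10 genes were chosen by their spleen and blood levels in these samples, so their differences between the tissues are given as a description, with no test.

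The series set Ly-6C-high monocytes of the spleen beside those of the blood, to ask how alike these blood-borne phagocytes are in the 2 places. The 8 samples formed 2 groups, 4 from blood and 4 from spleen, of 4 healthy, untreated female mice of the inbred strain C57BL/6, aged 8 to 12 weeks, with no altered gene and no agent given in either group. Cells were sorted as CD11b high and Ly-6C high, low for antigens of T cells, B cells, NK cells and granulocytes (CD90, B220, CD49b, NK1.1, Ly-6G) and low for antigens of macrophages and dendritic cells, I-Ab and CD11c among them. RNA of 1000 cells a sample was amplified and hybridized to 1-colour arrays, so each value is a bulk level in which fewer cells of a type and less RNA per cell cannot be told apart.

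In a dividing cell, type II topoisomerase untangles the copied DNA, and microtubules of the spindle then attach to each chromosome at its kinetochore. The chromosomal passenger complex, a kinase with its scaffold and targeting subunits, releases faulty attachments, and the spindle checkpoint holds the cell until every chromosome is attached. Most transcripts of this machinery peak late in the cell cycle and are low in resting cells, and monocytes in the circulation are regarded as mostly non-dividing.

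Levels are log2 values of the authors' table, in which every sample had a median of 7.31 and values under 6.8 were taken as background. Scanner files deposited for blood 1, blood 2 and blood 3 held other arrays than those columns did, with rank correlations of 0.842, 0.852 and 0.872 against about 1 for the 5 other samples. Values come from the table wherever the scanner files are not named, and results are also given without those 3 columns. Between 25976 and 32417 probes an array were well above background. Of 10 markers listed for Ly-6C-high monocytes none was below background everywhere. The summed signal of the 6 with a value in every sample overlapped between blood (32291 to 38303) and spleen (27779 to 43409). Of the 9 markers compared, 2 were higher in spleen by mean and 7 lower. Among the lower ones 2 had no overlap, Ccr2 (difference -0.41) and F13a1 (-0.15).

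Probes of the 2 genes with the largest differences, Top2a and Cdca8, are shown because different probes of the same gene gave different pictures. They are in lower case with no letter marked, 5′ to 3′, with the probe's name before it. For the probes that map to an unbroken stretch of 60 bases the first 30 bases are given.
Top2a A_51_P252157: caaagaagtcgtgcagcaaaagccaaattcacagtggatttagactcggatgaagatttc
Top2a A_52_P415299: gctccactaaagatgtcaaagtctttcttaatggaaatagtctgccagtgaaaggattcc
Top2a A_52_P156502: tagtctacatagatagtcagtgtttctcta
Cdca8 A_51_P155142: tctcctattctgttgtcatttgtgccctct
Cdca8 A_52_P392544: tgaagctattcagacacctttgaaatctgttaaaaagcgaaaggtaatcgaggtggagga
Cdca8 A_52_P463220: taagatgtatgaatgattccagtggaaata
On the mouse build mm7, which the scanner files use, the Top2a probes lie on the minus strand at chr11:99104969-99105783, chr11:99124086-99125113 and chr11:99106757-99106816, in the order shown. The Cdca8 probes lie on the minus strand at chr4:124363212-124363271, chr4:124368455-124371346 and chr4:124368555-124368614. The first 2 probes of each gene were designed on its RefSeq transcript and the last on a cDNA clone, and no exon or untranslated region annotation of mm7 was used here.

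Promoters of 4 members are shown because 6 of the 7 members with a window in the RefSeq promoter table (build GRCm38.p6) held 2 short motifs that the literature ties to late cell cycle genes. Windows run from 250 bases before to 50 after the start site, with the gene's strand read 5′ to 3′. Capitals mark CCAAT, the letters bound by NF-Y, and TTTGAA or TTCGAA, known as the cell cycle genes homology region, on either strand (ATTGG and TTCAAA on the other). Top2a and Cdca8 were the 2 members with the largest differences, Birc5 had a difference nearly as large, and Plk1 had none.
Top2a: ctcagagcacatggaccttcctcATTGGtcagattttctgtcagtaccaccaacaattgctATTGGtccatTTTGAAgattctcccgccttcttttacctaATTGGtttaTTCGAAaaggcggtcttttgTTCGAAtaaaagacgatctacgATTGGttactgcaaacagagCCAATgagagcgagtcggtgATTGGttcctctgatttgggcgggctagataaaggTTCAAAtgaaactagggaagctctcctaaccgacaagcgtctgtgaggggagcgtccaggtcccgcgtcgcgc
Cdca8: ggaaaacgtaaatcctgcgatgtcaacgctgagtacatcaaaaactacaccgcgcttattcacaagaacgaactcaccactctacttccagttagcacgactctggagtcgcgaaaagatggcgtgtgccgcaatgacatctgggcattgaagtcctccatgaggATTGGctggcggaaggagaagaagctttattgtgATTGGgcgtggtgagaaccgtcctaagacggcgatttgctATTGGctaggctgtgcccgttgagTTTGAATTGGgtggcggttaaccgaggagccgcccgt
Birc5: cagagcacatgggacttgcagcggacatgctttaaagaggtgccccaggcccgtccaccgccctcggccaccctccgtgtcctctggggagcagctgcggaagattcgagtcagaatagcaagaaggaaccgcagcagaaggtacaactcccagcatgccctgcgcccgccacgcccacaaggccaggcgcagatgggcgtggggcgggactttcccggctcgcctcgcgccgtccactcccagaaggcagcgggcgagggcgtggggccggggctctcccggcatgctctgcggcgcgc
Plk1: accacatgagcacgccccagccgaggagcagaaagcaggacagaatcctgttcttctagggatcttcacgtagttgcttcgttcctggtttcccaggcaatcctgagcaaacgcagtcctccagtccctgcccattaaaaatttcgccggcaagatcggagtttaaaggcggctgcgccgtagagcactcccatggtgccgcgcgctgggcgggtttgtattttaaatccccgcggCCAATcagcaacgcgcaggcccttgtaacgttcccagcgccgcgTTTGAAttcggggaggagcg
These windows lie at chr11:99024140-99024439 (minus strand) for Top2a, chr4:124936868-124937167 (minus) for Cdca8, chr11:117848987-117849286 (plus) for Birc5 and chr7:122159185-122159484 (plus) for Plk1. The Top2a window held 6 copies of CCAAT, 2 of TTTGAA and 2 of TTCGAA. In Cdca8 there were 4 of CCAAT and 1 of TTTGAA, which shares letters with one of the CCAAT copies. Plk1 had 1 of each of CCAAT and TTTGAA, and Birc5 had neither motif.

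Windows of Bub1, Kif11 and Prc1 also held CCAAT with TTTGAA or TTCGAA, and those of Pbk, Aurkb and Tpx2 were not used here. Both motifs together were in 7.52% of all 32841 windows of this length (8.61% of 27018 genes). CCAAT alone was in 37.4% of windows and TTTGAA or TTCGAA in 19.2%. At least 2 copies of CCAAT were in 11.7% of windows and in 3 members, Top2a, Cdca8 and Bub1. A match is a run of letters and not a shown binding site. Plk1, with nearly equal means in the tissues, held both motifs, and Birc5 held none.

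By mean level, 9 of the 10 members were higher in spleen, beside 48.8% of the 18266 genes tested. The members' median difference, spleen minus blood, was 0.97 on the log2 scale, with a range from -0.01 for Plk1 to 3.09 for Top2a, beside a median of -0.01 over all genes tested. Every spleen value lay above every blood value for 5 members, Top2a, Cdca8, Birc5, Pbk and Kif11, beside 1.88% of the genes tested, and below every blood value for 0 members, beside 1.41%. These shares describe genes picked for this difference, and nothing is read from them. A level of at least 6.8 on 4 or more arrays, with at least 3 values per tissue, let 7 members into the fit over all genes, and Bub1, Kif11 and Tpx2 did not pass it.

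**Figure D1:**
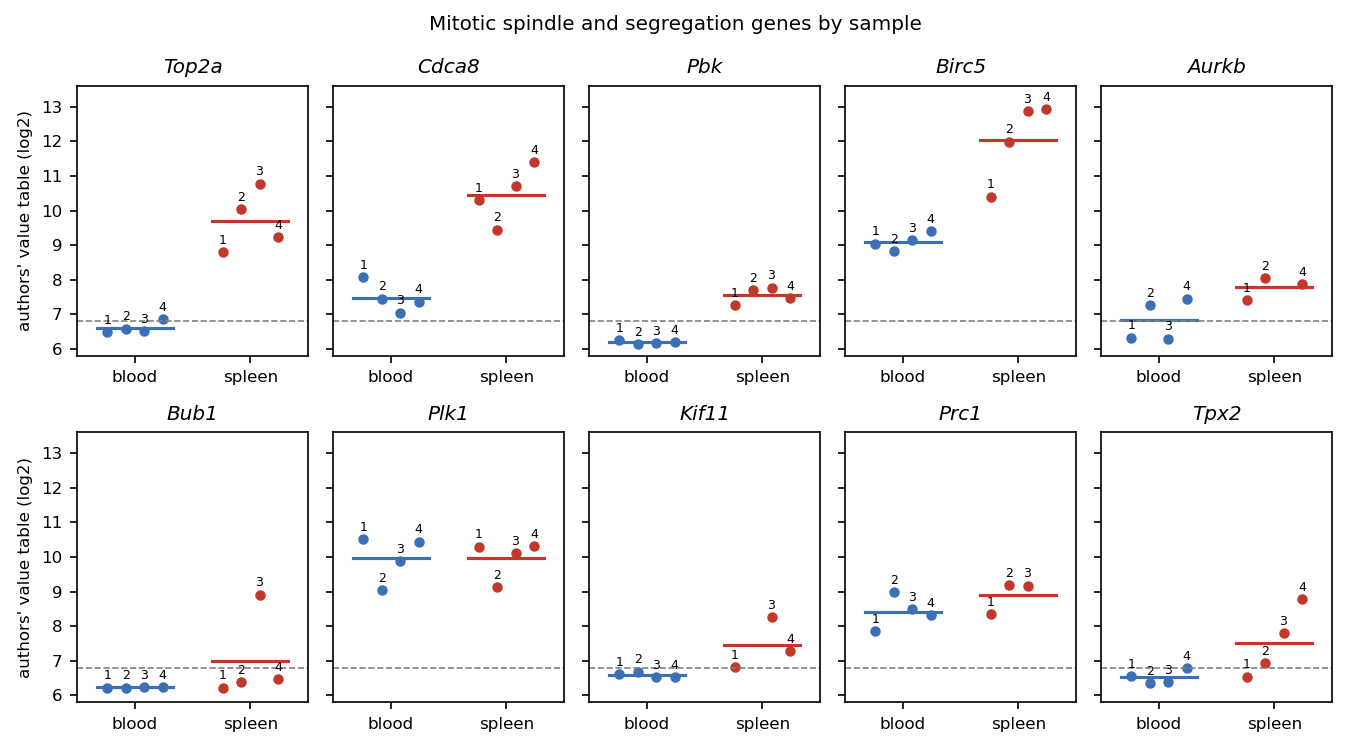
Log2 levels of the 10 members in the authors' table, one panel a gene, for blood (blue) and spleen (red). Each point is a sample with its number, the horizontal bar is the group mean and the dashed line is the background level of 6.8. Top2a, Cdca8, Pbk, Birc5 and Kif11 have no overlap between the tissues, Plk1 has nearly equal means, and the Bub1 mean in spleen rests on spleen 3 at 8.91.

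Top2a encodes topoisomerase IIα, which cuts and rejoins both strands of DNA and is needed to separate sister chromatids. Its brightest probe read 6.50, 6.59, 6.52 and 6.86 in blood 1 to 4 and 8.80, 10.04, 10.77 and 9.22 in spleen 1 to 4. Blood 4 alone among the blood samples reached the background level, and every spleen sample was well clear of it. Blood averaged 6.61 ± 0.17 (SD, n = 4) and spleen 9.71 ± 0.88 (SD, n = 4), a difference of 3.09, or 8.54-fold. With 3 of the 4 blood values under background, that fold is set in part by the background. The gap between the lowest spleen and the highest blood value was 1.94.

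The other probe designed on the Top2a transcript was dimmer in every sample. It read 6.36, 6.18, 6.33 and 6.25 in blood, all under background, and 6.62, 7.24, 8.31 and 7.09 in spleen. Spleen 3 was again the highest and spleen 1 the lowest, and the tissues did not overlap. Here the spleen mean was 1.43-fold above the background level. The probe on the cDNA clone stayed between 6.10 and 6.41 in all 8 samples and so measured nothing above background.

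Birc5, Cdca8 and Aurkb encode survivin, borealin and the kinase Aurora B, subunits of the chromosomal passenger complex. Birc5 read 9.05, 8.83, 9.14 and 9.40 in blood and 10.40, 11.99, 12.87 and 12.92 in spleen. All blood values were above background, so this difference was measured on both sides: 9.11 ± 0.24 (SD, n = 4) against 12.05 ± 1.18 (SD, n = 4), 2.94 higher or 7.67-fold. Spleen 1 stood nearest to blood, 0.998 above the highest blood sample.

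For Cdca8 the brightest probe gave 8.07, 7.45, 7.05 and 7.37 in blood and 10.30, 9.45, 10.70 and 11.40 in spleen. Blood was above background throughout, and the lowest spleen sample, spleen 2, was 1.38 above the highest blood sample. The means were 7.48 ± 0.43 (SD, n = 4) and 10.46 ± 0.81 (SD, n = 4), a difference of 2.98 or 7.86-fold. The other probe on the Cdca8 transcript did not follow this pattern in all samples: blood lay between 6.18 and 6.26, spleen 1 and spleen 3 read 7.85 and 7.64, and spleen 2 and spleen 4 read 6.13 and 6.36, under background. Spleen 4, the highest sample on the bright probe, was thus at background on this one. The cDNA clone probe was under background in all 8 samples.

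Aurkb, the kinase subunit of the complex, read 6.33, 7.26, 6.30 and 7.45 in blood and 7.42, 8.05 and 7.87 in spleen 1, spleen 2 and spleen 4, with an empty cell for spleen 3. Blood fell into 2 samples under background and 2 above it, and blood 4 lay above spleen 1. The means were 6.84 ± 0.61 (SD, n = 4) and 7.78 ± 0.33 (SD, n = 3), a difference of 0.94 or 1.92-fold.

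**Figure D2:**
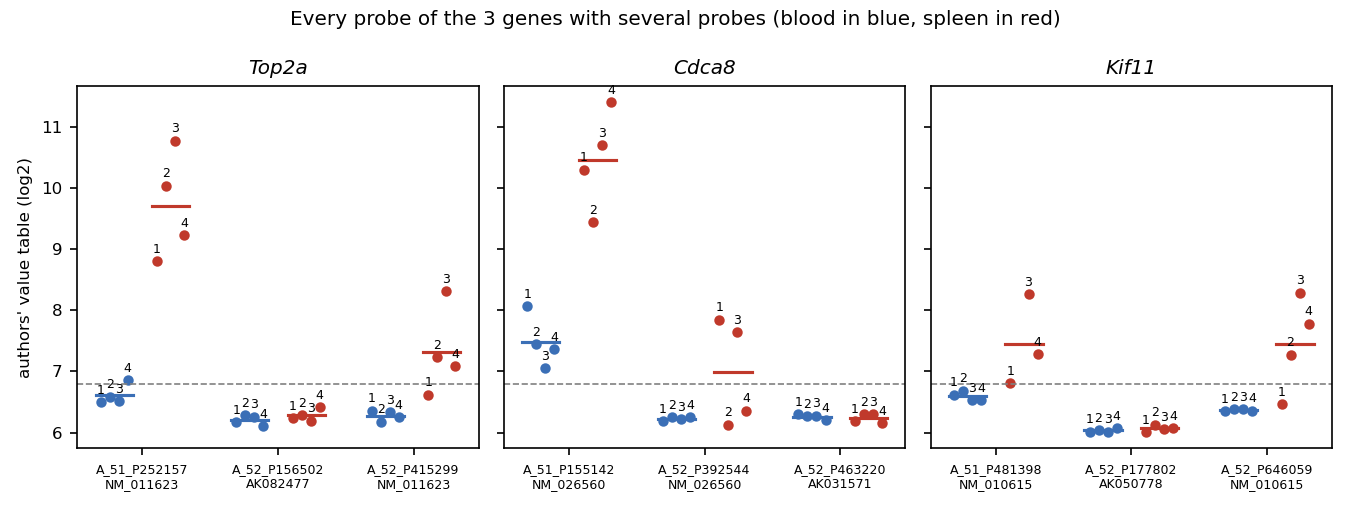
Log2 levels on every probe of the 3 members with several probes, Top2a, Cdca8 and Kif11, for blood (blue) and spleen (red) with sample numbers, bars at the group means and a dashed line at the background level of 6.8. The accession under each probe is the transcript it was designed on. Probes on the RefSeq transcripts rise above background in at least 2 spleen samples, and probes on cDNA clones (AK numbers) stay under background in all 8 samples.

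Bub1 encodes a checkpoint kinase that sits at kinetochores. Its level was 6.23, 6.22, 6.25 and 6.25 in blood and 6.22, 6.39, 8.91 and 6.48 in spleen. Spleen 3 was the only sample above background, so the difference of means, 0.76, came from 1 array and was 0.13 without it. The Bub1 spleen mean was 1.15-fold above the background level with an SD of 1.28 (n = 4), and 1 of the 4 spleen arrays measured it.

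Plk1 and Pbk encode kinases that act in mitosis, the first at centrosomes, kinetochores and the midbody. Plk1 read 10.52, 9.04, 9.88 and 10.44 in blood and 10.30, 9.13, 10.12 and 10.31 in spleen. It was well above background in every sample, the tissues overlapped, and the sample numbered 2 was the lowest in each. The means of Plk1 were 9.97 ± 0.68 (SD, n = 4) and 9.96 ± 0.56 (SD, n = 4), a difference of -0.01 whose sign turned when blood 1, blood 4 or spleen 2 was left out. Without one sample at a time it lay between -0.32 and 0.27.

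Pbk read 6.25, 6.15, 6.17 and 6.20 in blood and 7.26, 7.71, 7.77 and 7.47 in spleen. All blood samples were under background, all spleen samples above it, and the spleen values lay close together at 7.55 ± 0.23 (SD, n = 4). Pbk was at least 1.69-fold higher in spleen.

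Kif11 encodes the kinesin that slides microtubules apart to set up a bipolar spindle. Its brightest probe gave 6.62, 6.69, 6.53 and 6.53 in blood and 6.81, 8.26 and 7.29 in spleen 1, spleen 3 and spleen 4, with an empty cell for spleen 2. The tissues did not overlap, but spleen 1 was only 0.13 above the highest blood value and at the background level. The spleen mean of 7.45 ± 0.74 (SD, n = 3) was 1.57-fold above the background level, and the difference fell from 0.86 to 0.46 without spleen 3. The other probe on the Kif11 transcript, with a value in every sample, read 6.35 to 6.38 in blood and 6.47, 7.27, 8.29 and 7.78 in spleen. The order of spleen 1, spleen 4 and spleen 3 was the same on both, and the probe on a cDNA clone was under background everywhere.

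Tpx2 encodes a factor that drives microtubule growth near chromosomes and activates Aurora A. It read 6.57, 6.36, 6.38 and 6.80 in blood, all just or well under background, and 6.54, 6.93, 7.81 and 8.78 in spleen. Spleen 1 lay below 2 of the blood samples, blood 1 and blood 4. The spleen mean of Tpx2, 7.52 ± 0.998 (SD, n = 4), was 1.64-fold above the background level, and the difference of 0.99 was 0.56 without spleen 4.

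Prc1 encodes a protein that cross-links microtubules in the spindle midzone, where the cell is later cut. It read 7.87, 8.99, 8.49 and 8.33 in blood and 8.36, 9.18 and 9.17 in spleen 1 to 3, with an empty cell for spleen 4. All values were above background and the tissues overlapped. The means were 8.42 ± 0.46 (SD, n = 4) and 8.91 ± 0.47 (SD, n = 3), a difference of 0.49, which was 0.30 without blood 1 and 0.76 without spleen 1. The probe's span on mm7 is 53 bases, shorter than its 60 bases.

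The 4 spleen samples were not alike in these genes. Spleen 1 was the lowest spleen sample in 8 of the 10 members, all but Cdca8 and Plk1, beside 21.0% of all genes tested. Among the 8, Aurkb had an empty cell for spleen 3, whose scanner signal (-2.20) was below that of spleen 1 (-2.13). For Bub1, spleen 1, spleen 2 and spleen 4 were all under background, so their order carries little. Spleen 3 was the highest in 4 members (22.0% of all genes), spleen 4 in 4 (21.9%), spleen 2 in 2 (23.3%) and spleen 1 in 0 (32.8%). With each member's mean over the samples subtracted, the members averaged -0.70, -0.74, -0.83 and -0.54 in blood 1 to 4 and 0.14, 0.53, 1.40 and 1.04 in spleen 1 to 4. Spleen 1 was also the sample with the most empty cells in the table, 1426, though none of its member values was empty.

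Markers of neutrophil granules were higher in the same samples. Of 10 late granule markers, 9 were higher in spleen by mean, 7 of them without overlap, and the summed signal of the 8 with every value ran from 2981 to 6208 in blood and from 42788 to 113055 in spleen, highest in spleen 3. All 6 early granule markers on the array were higher by mean, 3 without overlap, with sums of 752 to 970 in blood and 1077 to 1858 in spleen, again highest in spleen 3. No marker of either list was below background on every array, and Ly-6G, the granulocyte antigen, was low in the sort. The part of these cells in the members' difference was not tested.

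Red pulp macrophage markers were higher by mean in 7 of 8, 4 without overlap. Those 4 were Vcam1 (difference 2.31), Slc40a1 (2.17), Spic (1.48) and C1qc (0.90). The sum of the 7 with every value did not separate the tissues (blood 4165 to 7418, spleen 6188 to 7419). Hmox1, the brightest of these 7, was the 1 marker lower by mean, at -0.03. With each gene's mean subtracted, the 7 did separate the tissues and peaked in spleen 3. They averaged -0.52, -0.51, -0.40 and -0.14 in blood 1 to 4 and 0.08, 0.56, 0.72 and 0.22 in spleen 1 to 4. The part of red pulp macrophages was not tested either. Of 8 stem and progenitor markers 5 were higher by mean and 3 lower, 1 of them without overlap. That one was Myb, a transcription factor of progenitors, at 7.90, 7.66, 7.36 and 7.82 in blood and 8.68, 8.01, 8.62 and 8.55 in spleen, all above background. Sums of the 7 with every value were 871 to 1133 in blood and 1133 to 1502 in spleen, adjoining without overlap, while Kit and Gata2 were below background on every array. The part of such cells in the members' difference was not tested. Of 10 erythroid precursor markers 5 were higher by mean and 5 lower. Alas2, the erythroid enzyme of haem synthesis, was the 1 without overlap, at 6.99 to 7.42 in blood and 7.48 to 8.35 in spleen. Hba-a1 and Slc4a1, a globin and a red cell membrane protein, were above background on all arrays and lower in spleen by mean, at -0.44 and -0.31, and Klf1, Car2 and Rhag were below background everywhere. The erythroid sums overlapped, 1884 to 3368 against 1454 to 4403, and their part was not tested. Sums of the B cell, plasma cell, T cell, NK cell, platelet and dendritic cell lists also overlapped between the tissues. The T cell sums were 2740 in spleen 3 and 2024 in spleen 4, and 914 to 1222 in all other samples. Of 6 plasma cell markers 3 were higher by mean and 3 lower. Jchain, outside the plasma cell sum for an empty cell in blood 4, read 6.25 to 6.30 in blood. In spleen 1 to 4 Jchain read 6.95, 9.83, 8.28 and 11.26. The part of T cells and plasma cells was not tested.

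**Figure D3:**
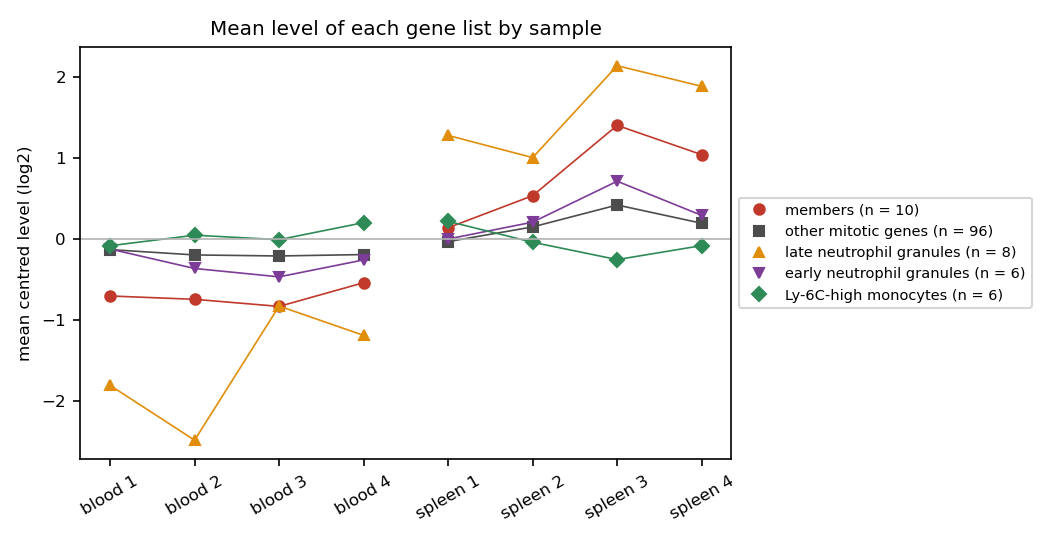
Mean log2 level by sample, each gene's mean over the samples subtracted first, for the members and for 4 other gene lists, where lines only join the points of a list and samples have no order. Members, other mitotic genes and both granule lists are lower in all 4 blood samples than in any spleen sample and peak in spleen 3, and Ly-6C-high monocyte markers do not separate the tissues.

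Other genes of mitosis were compared in 9 lists by role, 121 genes that leave out the members. Of these, 116 were on the array and 96 passed the filter, and 73 of the 96 were higher in spleen by mean and 23 lower. Their median difference was 0.36, against 0.97 for the 10 members and -0.01 for all genes tested. The members' median, unlike the others, takes in genes that did not pass the filter (Bub1, Kif11 and Tpx2). With values under background raised to it, the median was 0.73 for the members and 0.34 for the other mitotic genes. In limma's test with Benjamini-Hochberg adjustment 0 of the 96, and 0 of all 18266 genes (0%), passed the threshold of 0.05. At an unadjusted p under 0.05, 12 of the 96 were called, all higher in spleen, beside 992 of all genes (5.43%, or 3.09% for genes higher and 2.34% for genes lower in spleen). No overlap between the tissues was seen for 8 of the 96, all higher in spleen, beside 1.88% of all genes.

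Among partners of the members, Incenp, the scaffold of the chromosomal passenger complex, read 10.32, 10.74, 10.38 and 10.27 in blood and 10.85, 11.51, 11.64 and 11.24 in spleen. It was above background everywhere and without overlap, 0.89 ± 0.24 (SE) higher in spleen (limma, adjusted p = 0.57). Sgo1, a protector of centromere cohesion, was 1.14 ± 0.36 (SE) higher on 3 blood and 4 spleen values, also without overlap (limma, adjusted p = 0.722). The kinase Haspin, which marks histone H3 at centromeres, had nearly equal means with a difference of -0.02. Of the 3 tested genes of this list 2 were higher by mean.

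At the kinetochore, which links chromosomes to microtubules, 17 of 19 tested genes were higher by mean and 2 lower, with a median of 0.49. Cenpe, a kinetochore motor, was 1.06 ± 0.33 (SE) higher (limma, adjusted p = 0.691), and Nuf2, a subunit of the outer kinetochore complex that binds microtubules, was 0.83 ± 0.30 (SE) higher (limma, adjusted p = 0.746). Cenpc1, an inner kinetochore protein, was -0.28 different, one of the 2 lower genes. Of 8 spindle checkpoint genes 7 were higher by mean with a median of 0.24, and none was past an unadjusted p of 0.05. The lower one was Mad1l1, at -0.19.

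Spindle assembly and centrosome genes were higher by mean in 12 of 14, with a median of 0.60. Tacc3, which stabilizes kinetochore fibres, read 7.03, 7.29, 7.32 and 7.25 in blood and 7.87, 8.47, 9.58 and 8.18 in spleen, highest in spleen 3 and without overlap, a difference of 1.30 ± 0.35 (SE) (limma, adjusted p = 0.57). Bora, a cofactor in the activation of Plk1 by Aurora A, differed by 1.15 and Nusap1, a microtubule-bundling protein, by 1.39, each with overlapping tissues. Tubg1, the γ-tubulin of centrosomes, differed by -0.10. All 4 tested mitotic kinesins were higher by mean, with a median of 0.52 and none past an unadjusted p of 0.05.

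Condensin compacts chromosomes and cohesin holds sister chromatids together. Their list, which also held Espl1 and Pttg1, subunits of neither, had 8 genes higher and 5 lower by mean, with a median of 0.32. Higher were the condensin genes Smc2, Smc4, Ncapd2, Ncapd3, Ncaph and Ncapg2 and the cohesin genes Smc1a and Smc3. Lower were the cohesin genes Stag1, Stag2 and Rad21, with Espl1 and Pttg1. Smc2, a core condensin subunit, read 6.39, 6.28, 7.30 and 7.46 in blood and 8.03, 9.67 and 9.14 in spleen 2 to 4, with an empty cell for spleen 1. That difference, 2.09 ± 0.46 (SE), had the smallest adjusted p of the 96 genes, 0.428 in limma's test. The condensin subunits Ncapd2 and Ncapg2 differed by 1.13 and 1.15, the first without overlap, and the cohesin subunit Stag1 by -0.31.

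The anaphase promoting complex, the ubiquitin ligase that triggers chromosome separation, was the list nearest to all genes, with 9 of 16 higher by mean, 7 lower and a median of 0.04. Its lower gene with the smallest p was Anapc13, at -0.33. In the cytokinesis list 6 of 8 genes were higher with a median of 0.30, and Rhoa, the GTPase of the contractile ring, differed by -0.10. This list also held Cdca3 (0.84), Cdca5 (0.40) and Cdca2 (-0.15), which are not genes of cytokinesis in the strict sense. Of these 2 lists no gene passed an unadjusted p of 0.05.

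Transcription regulators of mitotic genes, among them subunits of the factors that bind the motifs marked above, were higher by mean in 8 of 11 with a median of 0.26. Foxm1, an activator of late cell cycle genes, read 6.51, 6.54, 7.66 and 6.50 in blood and 6.52, 8.33, 9.03 and 8.25 in spleen. Spleen 1 lay at the level of blood, as it did for Bub1 and Tpx2, and the other spleen samples were above all blood samples. Its difference was 1.23 ± 0.51 (SE) (limma, adjusted p = 0.866). Lin52, a subunit of the MuvB core that binds the TTTGAA motif, differed by 0.76, and Rbl2, a pocket protein of the repressor complex in resting cells, by -0.21.

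**Figure D4:**
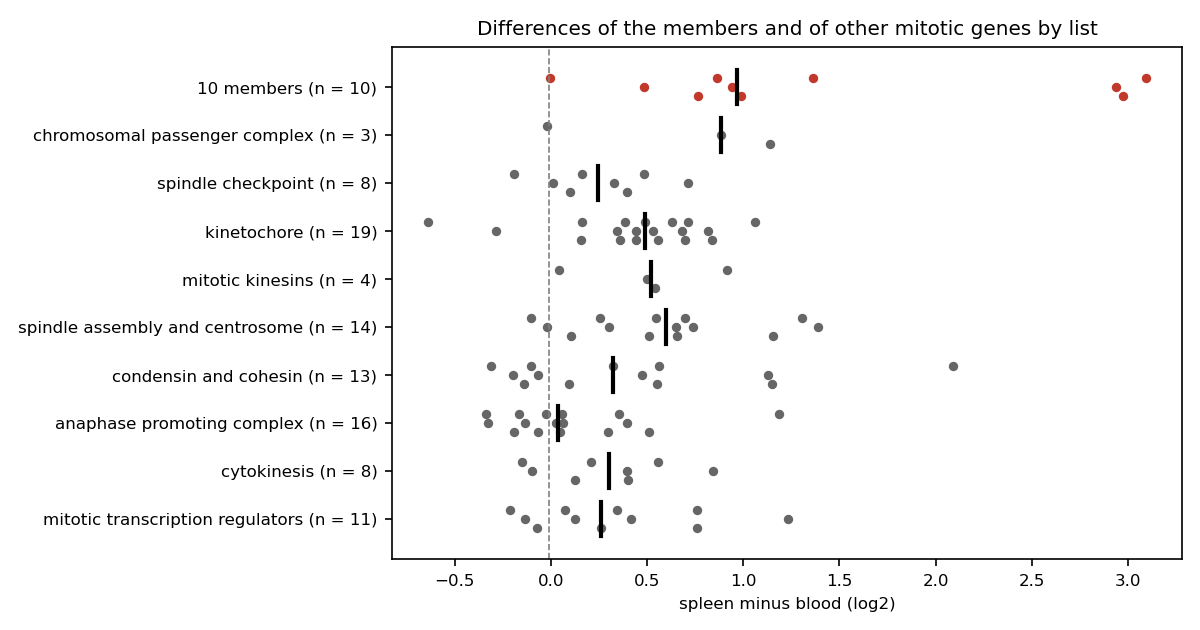
Differences, spleen minus blood on the log2 scale, of the 10 members (red) and of the tested genes of 9 lists of other mitotic genes (grey), one point a gene, with a black bar at each median. The dashed line is the median of all genes tested, -0.01. The members' median is 0.97, list medians run from 0.04 for the anaphase promoting complex to 0.89 for the chromosomal passenger complex, and the members were picked for this difference.

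The mean profile of the members over the 8 arrays was set against that of 16383 tested genes outside the group with a value in every sample, by root mean square distance after subtracting each gene's mean. The 5 nearest were Ddx51 (distance 0.191), Dach1 (0.197), the transcript ENSMUST00000035987 (0.298), C2cd5 (0.298) and LOC629581 (0.302), against a median distance of 0.928. Ddx51 read 7.64 to 8.03 in blood and 8.57, 8.72, 9.51 and 9.61 in spleen 1 to 4. Each of the 5 was lower in spleen 1 and spleen 2 than in spleen 3 and spleen 4, as the members' mean profile was. That shared order follows from picking the 5 by their distance to this profile.

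Without the 3 blood columns whose scanner files did not match, blood 4 was the only blood sample. The members' median difference was then 0.84. Top2a, Cdca8, Birc5, Pbk and Kif11 lay above all blood samples in spleen, so they were bound to lie above blood 4 as well. Prc1 was also above blood 4 (8.33) in every spleen sample with a value, the lowest being spleen 1 at 8.36. Blood 4 and spleen 4 shared a slide, and the median difference of the members between these samples was 1.27.

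The 3 other scanner files labelled blood gave a different picture for some members, as log2 signal minus the 75th percentile of the array. Cdca8 lay between 0.58 and 1.24 in those files, far above blood 4 at -2.50 and within the spleen range of 0.40 to 2.48. Birc5 ran from 0.12 to 2.29 in them, with blood 4 at 0.30 and spleen from 1.39 to 4.07, so spleen and these files overlapped. Top2a in spleen lay above blood 4 and above all 3 files, at -4.44 to -2.09 in the 3 files, -3.82 in blood 4 and -0.53 to 1.79 in spleen.

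Aurkb was at -6.97 to -4.66 in the 3 files, with blood 4 at -2.02 inside the spleen range of -2.20 to -1.11. Top2a and Aurkb were the 2 members with every spleen value above all 3 files, beside 7.20% of all genes tested. By mean 8 of 10 members were higher in spleen than in these files, with a median difference of 1.68 against -0.06 for all genes. Plk1 and Prc1 were the exceptions, at -0.24 and -0.32. The sources used here do not say whether these files or the table's columns are the blood samples meant.

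The scanner's own test of signal over background gave a count in each array. Of the 10 members 7, 8 and 8 were well above background in the 3 other files, 7 in blood 4, and 8, 9, 10 and 9 in spleen 1 to 4. Beside this, 25976, 29872 and 32417 of all 41174 probes were so in the 3 other files. Blood 4 had 28725 such probes, and spleen 1 to 4 had 27788, 26539, 27144 and 29572. Bub1 was well above background in none of the files labelled blood and in 1 spleen file. In at least 1 of the 3 other files 9 of the 10 were well above background, Pbk and Kif11 in 2 of the 3. The share of all probes was not worked out for that count, so nothing is read from it.

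**Figure D5:**
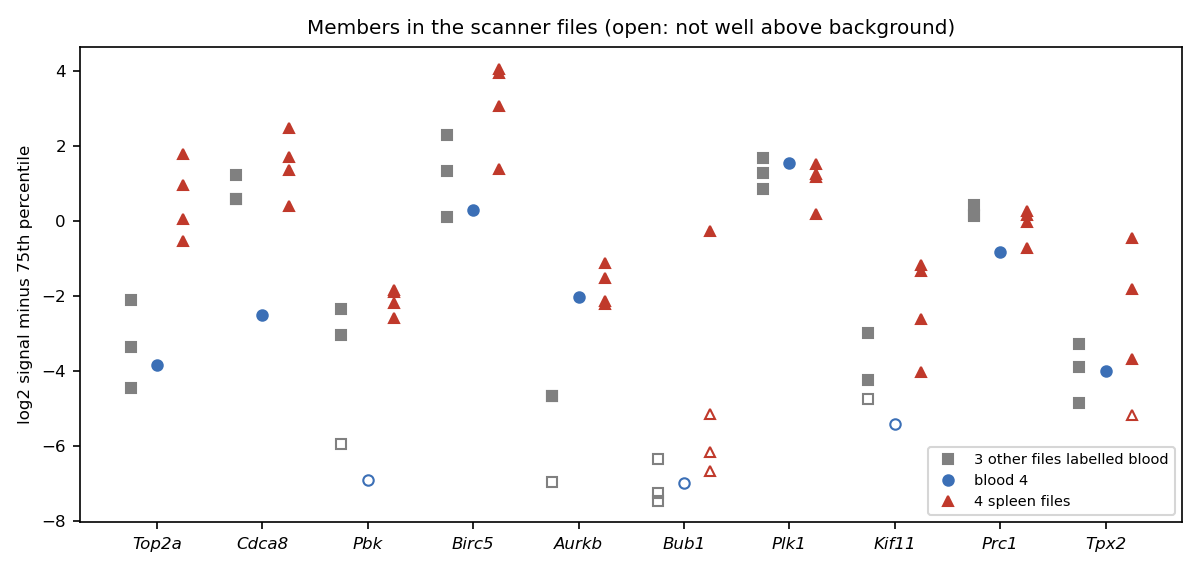
Scanner signal of the 10 members, log2 minus the 75th percentile of each array, for the 3 other files labelled blood (grey squares), blood 4 (blue) and spleen (red triangles), with open symbols where the scanner software did not find the probe well above background. Cdca8 in the 3 other files lies between 0.58 and 1.24, within the spleen range, while Top2a in spleen lies above every file labelled blood.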

How the data were processed

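RNA of 1000 sorted cells a sample (5 ng, amplified, Cy3) was hybridized to 1-colour arrays. The intensity values in the deposited scanner files came from Agilent Feature Extraction 9.5.1.1, per the file headers, which also mark each spot that is well above background. The authors deposited a table of log2 values for the 8 samples; limma is named in the submitters' processing notes, its version being not given in the sources used here. Its columns all have the same median and rank the probes as the scanner's median signal does in the 5 matching arrays. The level 6.8 is where, in each matching array, at least 95% of probes in every step of 0.1 upward passed the scanner's test of signal over background. A probe entered the fit at or above it on at least 4 of 8 arrays with at least 3 values per tissue (25471 probes), and the brightest probe stood for a gene.

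Genes were named by the accession in the scanner files through a RefSeq table where it matched (22951 probes), otherwise by the name in those files. Spleen was compared with blood as unpaired groups over all 18266 genes with lmFit and eBayes (limma 3.58.1, R 4.3.3, data.table version 1.17.8) and Benjamini-Hochberg adjustment. Blood and spleen were taken from each of 4 mice. Samples carry numbers 1 to 4 in each tissue, but the labels do not tie a number to a mouse, so no pairs were set. The p-values reflect only the spread among these samples, and 4 arrays a tissue limit the precision. On simulated data with 50 genes changed at each size among 18266, the fit recovered 14%, 58%, 84% and 96% of genes at log2 changes of 1, 2, 3 and 4.

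The members, lists and rules were chosen with earlier results of these data known. Named are the 10 members with all probes, up to 3 genes a list with the smallest unadjusted p under 0.05, the lower gene with the smallest p in each list, and the 5 nearest profiles. Where a tissue lay under background on every array, a fold between tissues is a bound, the brighter mean over 6.8, written "at least". A fold above the background level is the spleen mean over 6.8, and that mean can include values under 6.8. Summed signals are sums of 2 to the power of the table's values. The scanner signal is log2 of the signal after background subtraction, less the 75th percentile of its array. Fits with other filters, probe rules, variance models, blocks, arrays and scanner settings, and without each replicate, were the alternatives.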

Additional observations from a re-analysis of the deposited data

Results flagged for a closer look

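In 19 groups of 4 values, a member or the members' median in a tissue, the sample farthest from the others was set against Dixon's 95% critical value of 0.829, which chance exceeds in about 1 of 20 groups. In spleen, Bub1 stood apart in spleen 3, at 8.91 on the log2 scale against 6.22 to 6.48 in the other spleen samples, with a gap of 0.904 of the range. Plk1 stood apart in spleen 2, at 9.13 against 10.12 to 10.31, with a gap of 0.841 of the range.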

How the results depend on the processing

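No gene passed the adjusted threshold in the reported fit. A replicate block on the sample number let 13 genes pass as a random term (correlation 0.21) and 1 as a fixed term. The median differences (0.97 for members, 0.36 for other mitotic genes) were taken from plain group means, which a block cannot move. Deviations of same-numbered samples correlated at 0.0903 to 0.141, not all over 0.1, so the numbers were not taken as pairs. Those of other numbers lay between -0.116 and 0.0344, and every sample correlated best with its own number. This hint that a number stands for a mouse comes from the data. By design each mouse gave both tissues, but the labels do not say which number belongs to which mouse. The count was 8 under a robust variance with an intensity trend, 9 with array weights, 7 with the mean over probes, 1 for probes that were above background on each of the 8 arrays, 1 and 5 with scanner signals (75th percentile; normexp and quantile), 1 with slide as a block, and 0 to 3 without one sample, where it was 3 without blood 1, spleen 1 or spleen 2 and 2 without blood 2. Unadjusted calls, 992, became 1538 and 1703 with the 2 scanner settings and were 942 to 1083 without one sample. The members' median was 2.94 over members above background on all 8 arrays, which leaves few of them. With scanner signals at the 75th percentile it was 2.08, again from plain means that a slide block cannot move. With the 5 matching scanner files it was 2.62, and within the slide of the files of blood 1 and spleen 3 it was 1.97. It was 0.89 to 1.25 without one sample. Within the slide of the files of blood 2, blood 3 and spleen 1 the members' median was 0.46 (Cdca8 0.46, Birc5 0.18) and that of other mitotic genes -0.11. In the table the latter median was 0.23 to 0.38 without one sample. The slide block, the 5 scanner files and the within-slide values from scanner files were chosen after seeing the data. For these changes the cause was not tested. Of the members, Plk1, Prc1, Kif11 and Tpx2 had a difference whose sign turned: Plk1, Kif11, Prc1 and Tpx2 within that last slide, Prc1 also with scanner signals and Plk1 without blood 1, blood 4 or spleen 2. Signal over background limits Pbk, Bub1, Kif11 and Tpx2, whose blood levels are bounds.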
